A study of Mus musculus with 9 samples.

Results

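The mitochondrial carriers of the Slc25 family were examined in the transcriptomes of astrocytes and SB28 glioblastoma cells sorted from co-culture. Members were all genes with a symbol of the form Slc25a plus a number that GENCODE M21 annotates as protein-coding on GRCm38. The count table held 48 Slc25a genes, and 1 of them, a pseudogene, was left out, so that 47 of 49315 gene IDs were members. The co-culture paired primary neonatal astrocytes of the strain C57BL6 (mito::mKate2), in which a red fluorescent protein, mKate2, marks the mitochondria, with SB28, a mouse glioblastoma line given in the labels as C57BL6. The cells shared an untreated co-culture of 2 days, in DMEM F12 with serum, N2, EGF and FGF, and were then sorted into astrocytes, SB28 cells with mKate2 signal (mKate2+) and SB28 cells without it (mKate2-). Each group had 3 libraries. The methods describe distinct co-cultures as the replicates, with the populations sorted from them, but do not say which libraries of different groups share a co-culture. All SB28 libraries come from 1 cell line, and no SB28 cells or astrocytes grown alone were measured, so the effect of co-culture itself is in every group. Total counts ran from 24454561 to 35135662 per astrocyte library, from 27187348 to 35891589 per mKate2- library and from 34175016 to 39287841 per mKate2+ library.

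SLC25 proteins are carriers of the inner mitochondrial membrane that exchange metabolites, nucleotides and cofactors between the matrix and the cytosol. They are encoded in the nucleus, and many substrates have paralogous carriers whose use differs between tissues. In brain, the aspartate/glutamate carriers run the malate-aspartate shuttle that brings cytosolic reducing power to the matrix, and astrocytes use mitochondrial glutamate carriers to oxidize or release glutamate. The comparisons ask which isoforms separate tumor cells from astrocytes, and whether SB28 cells with the mKate2 signal differ from those without.

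The libraries were first set against markers of the labelled cell types, in CPM, the count of a gene divided by its library's total and scaled alike in all libraries. The 12 astrocyte markers summed to 1114, 1112 and 1783 CPM in astrocyte replicates 1, 2 and 3, and to between 372 and 448 CPM in the 6 SB28 libraries, where Gja1, encoding connexin 43, was the most abundant. Gja1 ran against the sum, at 168, 212 and 216 CPM in astrocytes and at 241 to 284 CPM in SB28 cells. The glutamate transporter gene Slc1a3 stood at 173, 177 and 236 CPM in astrocytes and at 0.560 to 2.38 CPM in SB28 cells. Astrocyte replicate 3 stood apart, with Aqp4 at 59.7 CPM against 5.64 and 6.82 CPM in the other astrocyte libraries, and S100b was low throughout, at 2.16 CPM or less. The 8 markers of the oligodendrocyte lineage summed to 847, 444 and 508 CPM in astrocytes, carried mostly by Olig1 and Olig2. Pdgfra was at 10.3, 23.3 and 23.7 CPM there and Cspg4 at 26.9, 19.3 and 22.6 CPM, while Sox10, Mog and Mbp were at or near 0. In SB28 libraries the sum of the 8 was 17.1 to 27.0 CPM, with Pdgfra at 8.20 to 13.9 CPM and Cspg4 at 2.05 to 4.78 CPM. Of 8 microglia markers only Tmem119 exceeded 2.54 CPM in any library. The 6 neuron markers summed to 42.0, 55.5 and 49.9 CPM in astrocytes and to 37.9 to 47.3 CPM in SB28 cells, almost all from Map2 and Tubb3. Map2 was at 28.0, 44.2 and 37.5 CPM in astrocytes and at 15.1 to 22.4 CPM in SB28 cells. Tubb3 was at 13.2, 9.45 and 10.4 CPM in astrocytes and at 18.2 to 24.8 CPM in SB28 cells, while Rbfox3 was at 0 in all 9 libraries. The 5 fibroblast and endothelium markers summed to 327, 324 and 154 CPM in astrocytes and to 105 to 182 CPM in SB28 cells, almost all from Col1a1, with Cldn5 at or near 0. The part of these cells in the carrier differences below was not tested, and in bulk RNA fewer cells of a type and less RNA per cell cannot be told apart.

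The promoters of 4 genes are shown, those with the largest fitted fold changes in the family (Slc25a13, Slc25a18 and Slc25a23) and Slc25a12, the paralogue of Slc25a13. They are RefSeq sequences of GRCm38.p6, from 250 bases before to 50 bases after the annotated start, printed 5′ to 3′ on the gene's strand. Capitals mark 2 of the 3 motifs searched on both strands, the E-box CACGTG and the CCAAT box CCAAT; the third was GCGCATGC, the core of the site of NRF1, a regulator of mitochondrial genes. No motif contains another.
Slc25a13 (chr6:6217124-6217423, minus strand): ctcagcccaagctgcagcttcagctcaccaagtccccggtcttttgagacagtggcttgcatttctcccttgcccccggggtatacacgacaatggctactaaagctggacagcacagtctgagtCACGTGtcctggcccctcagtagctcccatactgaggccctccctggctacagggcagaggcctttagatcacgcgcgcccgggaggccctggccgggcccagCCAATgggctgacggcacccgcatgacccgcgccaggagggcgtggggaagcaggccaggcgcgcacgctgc
Slc25a12 (chr2:71367706-71368005, minus strand): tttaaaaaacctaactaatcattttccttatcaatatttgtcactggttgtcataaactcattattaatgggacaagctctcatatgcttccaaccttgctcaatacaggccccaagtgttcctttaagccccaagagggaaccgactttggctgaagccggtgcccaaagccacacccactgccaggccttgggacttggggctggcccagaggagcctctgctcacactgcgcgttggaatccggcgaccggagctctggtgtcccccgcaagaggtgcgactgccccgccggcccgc
Slc25a18 (chr6:120773518-120773817, plus strand): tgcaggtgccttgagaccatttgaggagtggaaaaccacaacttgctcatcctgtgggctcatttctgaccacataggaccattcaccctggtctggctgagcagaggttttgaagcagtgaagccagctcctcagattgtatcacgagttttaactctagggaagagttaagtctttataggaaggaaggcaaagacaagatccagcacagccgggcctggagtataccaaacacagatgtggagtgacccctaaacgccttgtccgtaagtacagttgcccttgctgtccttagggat
Slc25a23 (chr17:57059814-57060113, minus strand): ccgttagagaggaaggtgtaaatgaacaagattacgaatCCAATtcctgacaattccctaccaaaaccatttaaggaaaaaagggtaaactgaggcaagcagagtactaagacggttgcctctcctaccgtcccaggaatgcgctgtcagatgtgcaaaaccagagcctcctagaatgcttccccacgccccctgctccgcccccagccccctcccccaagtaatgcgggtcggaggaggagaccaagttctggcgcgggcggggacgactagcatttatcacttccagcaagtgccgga
The window of Slc25a13 held an E-box and a CCAAT box, that of Slc25a23 a CCAAT box, and those of Slc25a12 and Slc25a18 none of the 3. The promoters of Slc25a22 and Slc25a24, paralogues of Slc25a18 and Slc25a23, and a second promoter of Slc25a23 are not printed. Among them, a promoter of Slc25a22 and the second promoter of Slc25a23 held a CCAAT box, and that of Slc25a24 held none of the 3. RefSeq gave 46 promoters for 36 of the 47 members. An E-box was in 8 of the 46 and in 7.15% of all 32851 promoters, the NRF1 core in 2 and in 2.71%, and a CCAAT box in 22 and in 37.4%. These are matches of letters and not binding sites.

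The family as a whole took 0.308 ± 0.0283% of all counts in astrocytes, 0.297 ± 0.00774% in mKate2- SB28 cells and 0.313 ± 0.0102% in mKate2+ SB28 cells (SD, n = 3 throughout). The 47 members summed to 3084 ± 283 CPM in astrocytes, 2971 ± 77.4 CPM in mKate2- SB28 cells and 3133 ± 102 CPM in mKate2+ SB28 cells. The mKate2- cells differed from astrocytes by -113 CPM and the mKate2+ cells by 49.5 CPM. Neither passed a two-sided exact permutation test (p = 0.6 and p = 0.8, both 0.8 after Benjamini-Hochberg adjustment over 3 comparisons), for which 3 libraries against 3 cannot go below 0.1. The sign of both differences turned when 1 library was left out, to 17.6 CPM without astrocyte replicate 1 for mKate2- cells and to -100.9 CPM without astrocyte replicate 3 for mKate2+ cells. Between the mKate2+ and mKate2- cells the difference was 163 CPM (exact p = 0.2, adjusted p = 0.6). On TMM-scaled CPM the sums were 3033, 3507 and 3182 CPM in mKate2+ and 2887, 2901 and 3013 CPM in mKate2- libraries, which did not overlap and differed by 307 CPM (exact p = 0.1, the smallest possible, and 0.3 after adjustment over 3 comparisons). The 3507 CPM is that of mKate2+ replicate 2, a library that stood apart as given below, and without it the difference is smaller. On TMM-scaled CPM the difference from astrocytes was -94.1 CPM for mKate2- and 213 CPM for mKate2+ cells (exact p = 0.7 and 0.4). Of the members, 40 passed the filter of more than 1 CPM in at least 2 libraries in both comparisons with astrocytes. The 7 that did not were Slc25a2, Slc25a21, Slc25a31, Slc25a34, Slc25a41, Slc25a48 and Slc25a54. Their highest value was 3.10 CPM, for the oxodicarboxylate carrier Slc25a21 in astrocyte replicate 3. The plot of CPM by library shows 39 of the 40.

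**Figure D1:**
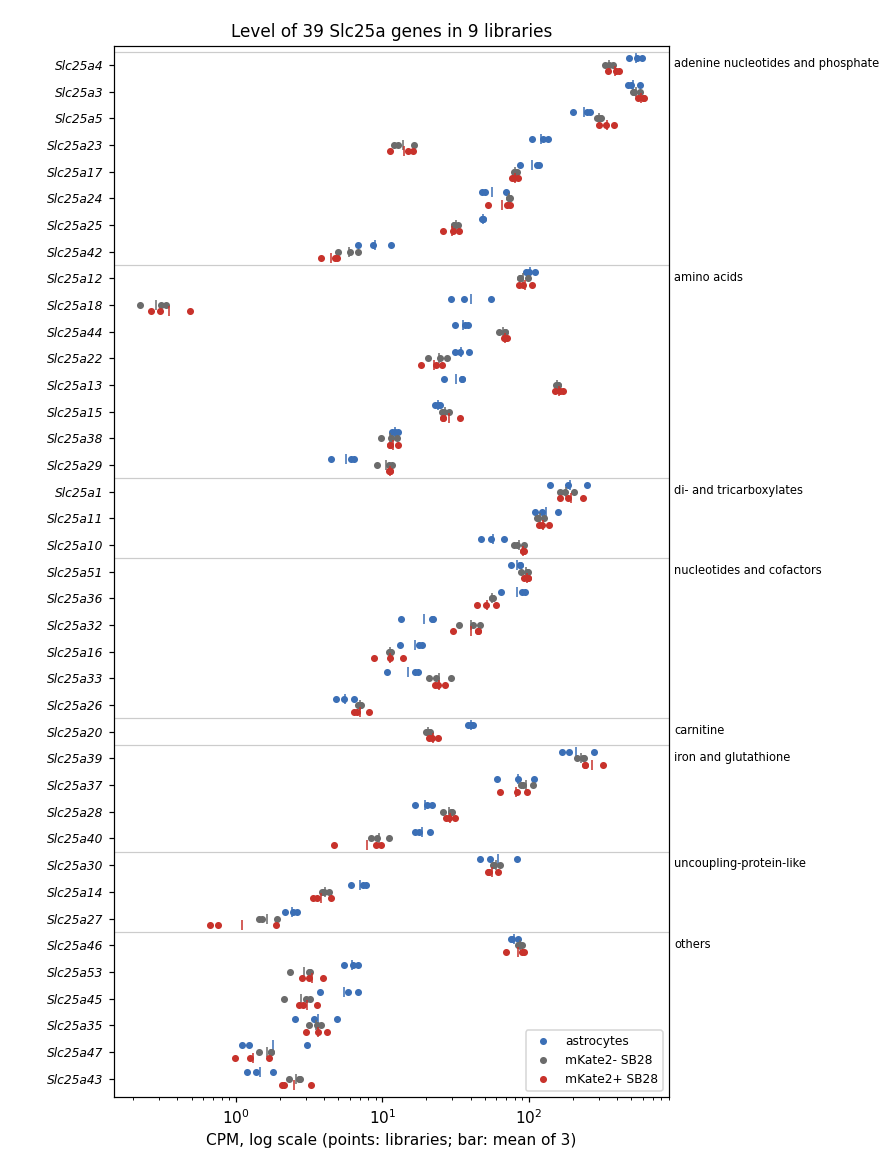
CPM of 39 of the 40 Slc25a genes that passed the filter, on a log axis, by library (points) with the mean of 3 libraries (bars), grouped by transported substrate. The astrocyte points lie apart from both SB28 groups for Slc25a18, Slc25a23 and Slc25a13, whereas the mKate2- and mKate2+ points lie close together for most genes.

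Members separated tumor cells from astrocytes in both directions. With both an adjusted p below 0.05 in edgeR's quasi-likelihood test and a log2 fold change beyond 1 in size, 2 of 40 members were called higher in mKate2- cells, Slc25a13 and Slc25a32, against 11.5% of 13356 genes. Called lower were 3, namely Slc25a18, Slc25a23 and Slc25a53, against 22.4% of genes. In mKate2+ cells, 4 of 40 were called higher, Slc25a13, Slc25a32, Slc25a29 and Slc25a44, against 12.2% of 13342 genes. The 3 called lower were Slc25a18, Slc25a23 and Slc25a40, against 22.8% of genes. By the adjusted p alone, 10 members were higher and 13 lower in mKate2- cells, where 29.3% and 33.8% of genes were, and 8 were higher and 11 lower in mKate2+ cells, where 28% and 32.1% of genes were. Slc25a18 is among the lower ones in each count and passed the filter through the astrocytes alone. The counts are near or below the shares of all genes, and nothing is read from them about the family as a whole. The median log2 fold change of the 40 members was -0.07 in mKate2- and 0.03 in mKate2+ cells, beside -0.04 and -0.02 for all genes tested. With upper-quartile in place of TMM normalization, 2 members were higher and 6 lower in mKate2- cells, beside 1311 and 3187 of 13356 genes. By the adjusted p alone 7 were higher and 14 lower there, beside 3458 and 4832 genes. In mKate2+ cells the split at both thresholds was 2 higher and 4 lower. Nothing is read from these counts about the family either. Both comparisons use the same astrocyte libraries, so their values are given side by side and neither repeats the other.

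**Figure D2:**
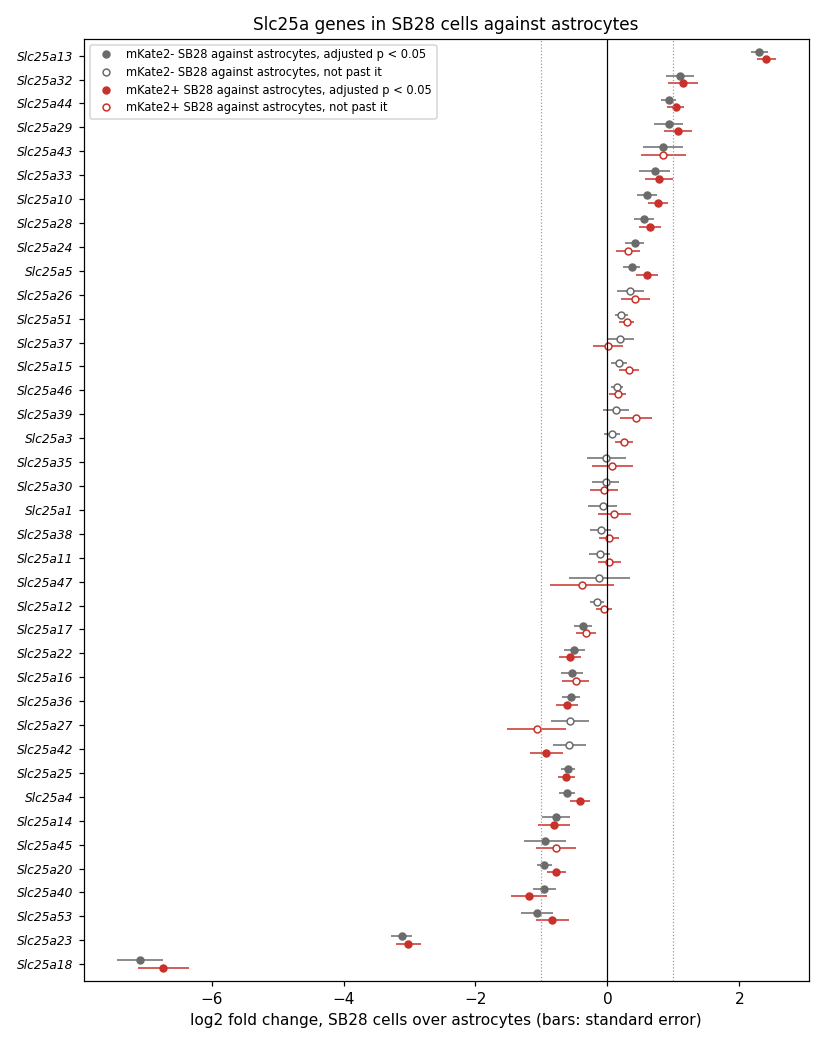
Log2 fold changes of 39 Slc25a genes in mKate2- (gray) and mKate2+ (red) SB28 cells against the same 3 astrocyte libraries, with standard errors as bars, filled where the adjusted p was below 0.05. Slc25a13 lies at 2.30 and 2.41, Slc25a23 at -3.12 and -3.02 and Slc25a18 at -7.08 and -6.73, and most other genes lie within 1 of zero.

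Among carriers of amino acids, the aspartate/glutamate exchanger Slc25a13, known as citrin, was the member raised most in tumor cells. The gene spans chr6:6041218-6217173 on the minus strand of GRCm38. It measured 26.3, 34.9 and 34.7 CPM in astrocytes, 158, 152 and 157 CPM in mKate2- cells and 170, 150 and 163 CPM in mKate2+ cells. All 6 SB28 libraries lay far above all 3 astrocyte libraries. The log2 fold change was 2.30 ± 0.12 (SE) in mKate2- cells (adjusted p = 8.83e-06, edgeR) and 2.41 ± 0.14 in mKate2+ cells (adjusted p = 1.51e-05, edgeR). With any 1 library left out it ran from 2.19 to 2.35 and from 2.29 to 2.46. Its paralogue Slc25a12, known as aralar and the main form in neurons, did not pass the test. That gene measured 111, 96.2 and 99.8 CPM in astrocytes, 86.3, 87.3 and 98.7 CPM in mKate2- cells and 90.7, 86.1 and 105 CPM in mKate2+ cells, with overlapping groups. Its log2 fold changes were -0.16 ± 0.11 and -0.05 ± 0.12 (edgeR adjusted p = 0.249 and 0.742). Per kilobase of exon, Slc25a13 made up 37.6 ± 5.37% of the pair in astrocytes, 76.9 ± 1.27% in mKate2- cells and 76.9 ± 1.65% in mKate2+ cells. The summed level of the pair was 22.3 ± 0.382 CPM per kilobase in astrocytes and 53.4 ± 1.46 and 55.2 ± 3.44 CPM per kilobase in mKate2- and mKate2+ cells.

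The glutamate carriers were split in the opposite way. Slc25a18, which imports glutamate with a proton and is known in brain as an astrocyte form, measured 54.8, 29.5 and 35.9 CPM in astrocytes, from 1340, 965 and 1261 counts. It measured 0.221, 0.306 and 0.335 CPM in mKate2- cells, from 6, 11 and 10 counts, and 0.305, 0.484 and 0.263 CPM in mKate2+ cells, from 11, 19 and 9 counts. Every SB28 library thus had 19 counts or fewer, and every astrocyte library 965 or more. The gene passed the filter through the astrocytes alone and so could only be called lower. Its fitted log2 fold changes of -7.08 ± 0.35 and -6.73 ± 0.38 are therefore given as a description, without a test. The gene lies at chr6:120773578-120794336 on the plus strand, and 32 of its exonic bases lie in Atp6v1e1 on the other strand. Whether strand was used in counting is not given in the sources used here, and without it reads from bases that genes share on opposite strands cannot be told apart, which holds for each overlap named below. Among astrocyte libraries Slc25a18 was highest in replicate 1, as was the oligodendrocyte lineage sum, whereas Aqp4 was highest in replicate 3, and their part in its level was not tested. Slc25a22, the other glutamate carrier, was present in every group, at 39.0, 33.9 and 31.2 CPM in astrocytes, 24.8, 20.5 and 27.5 CPM in mKate2- cells and 23.1, 18.4 and 25.5 CPM in mKate2+ cells. All SB28 libraries were below all astrocyte libraries, with log2 fold changes of -0.50 ± 0.16 and -0.56 ± 0.16 (edgeR adjusted p = 0.025 and 0.0188). These calls were lost in turn without mKate2- replicate 1 or 2 (edgeR adjusted p = 0.068 and 0.0928) and without mKate2+ replicate 1 or 2 (edgeR adjusted p = 0.0566 and 0.0541). Per kilobase, Slc25a22 was 22.3 ± 4.19% of the pair in astrocytes, 96.4 ± 0.880% in mKate2- cells and 95.1 ± 2.38% in mKate2+ cells. The summed level of the glutamate pair was 26.8 ± 7.44 CPM per kilobase in astrocytes and 4.20 ± 0.594 and 3.91 ± 0.542 CPM per kilobase in the SB28 groups.

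Of the 10 amino acid carriers, 8 were tested, and by the adjusted p alone 3 were higher and 2 lower in each SB28 group, beside 29.3% and 33.8% of all genes in mKate2- cells and 28% and 32.1% in mKate2+ cells. The lower ones were Slc25a22 and Slc25a18, and Slc25a18 passed the filter through the astrocytes alone, so it could only be called lower. Beside Slc25a13, the higher ones were Slc25a44 and Slc25a29. Slc25a44, the carrier of branched-chain amino acids, measured 31.1, 38.5 and 36.4 CPM in astrocytes, 62.6, 69.2 and 68.2 CPM in mKate2- cells and 68.3, 70.6 and 67.2 CPM in mKate2+ cells, without overlap between tumor cells and astrocytes. The log2 fold changes were 0.93 ± 0.11 and 1.04 ± 0.13 (edgeR adjusted p = 0.000262 and 0.000352), so that only the second was past 1, and it was 0.99 without mKate2+ replicate 2, 0.96 without astrocyte replicate 1, 0.94 with upper-quartile normalization and 0.98 with a gene length trend removed. Slc25a29, which carries basic amino acids, stood at 6.38, 4.46 and 6.09 CPM in astrocytes, 9.16, 11.1 and 11.7 CPM in mKate2- cells and 11.3, 11.2 and 11.4 CPM in mKate2+ cells. Here too the groups of tumor cells lay above the astrocytes, by log2 fold changes of 0.93 ± 0.22 and 1.07 ± 0.21 (edgeR adjusted p = 0.0072 and 0.00355). The second was 0.91 without astrocyte replicate 2 and 0.97 with upper-quartile normalization, and the first was 1.03 without mKate2- replicate 1 or astrocyte replicate 1. The ornithine carrier Slc25a15 and the glycine carrier Slc25a38, which serves heme synthesis, did not pass the test in either comparison, with log2 fold changes between -0.10 and 0.33.

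The carriers of adenine nucleotides and phosphate held the most abundant members. Per kilobase of exon, Slc25a4 led in astrocytes with 230 ± 22.4 CPM, ahead of Slc25a5 with 143 ± 19.9 CPM and of the phosphate carrier Slc25a3 with 93.0 ± 9.39 CPM. In SB28 cells Slc25a5 led, with 184 ± 5.73 CPM per kilobase in mKate2- and 206 ± 24.1 in mKate2+ cells, ahead of Slc25a4 with 149 ± 9.69 and 163 ± 14.7. Slc25a3 came next, with 97.0 ± 5.91 and 106 ± 5.005 CPM per kilobase. The order in SB28 cells depended on the division by exon length. In plain CPM Slc25a3 led there, with means of 538 in mKate2- and 586 in mKate2+ cells. Slc25a4 followed at 351 and 384 CPM, and Slc25a5 at 302 and 340 CPM. Together the 3 genes took 41.9 ± 0.632% of the family's CPM in astrocytes, 40.1 ± 1.15% in mKate2- cells and 41.7 ± 1.76% in mKate2+ cells.

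Slc25a4 and Slc25a5 encode ADP/ATP translocases, which export the ATP made in the matrix; the first is known as the form of heart and muscle and the second as the form of dividing cells. Slc25a4 measured 591, 544 and 486 CPM in astrocytes, 350, 329 and 375 CPM in mKate2- cells and 345, 412 and 394 CPM in mKate2+ cells. All SB28 libraries were below all astrocyte libraries, with log2 fold changes of -0.61 ± 0.12 and -0.42 ± 0.15 (edgeR adjusted p = 0.00343 and 0.0411). The second call was lost without mKate2+ replicate 1 or 3 or astrocyte replicate 1 or 2, where the edgeR adjusted p was 0.161, 0.115, 0.1 and 0.0887, and without a filter, where it was 0.127. With a replicate block that call was lost as well (edgeR adjusted p = 0.0765). Slc25a5 measured 260, 250 and 199 CPM in astrocytes, 308, 291 and 307 CPM in mKate2- cells and 303, 382 and 334 CPM in mKate2+ cells, again without overlap and in the other direction. Its log2 fold changes were 0.37 ± 0.13 and 0.60 ± 0.17 (edgeR adjusted p = 0.04 and 0.0161). The first of these calls was lost without mKate2- replicate 1, 2 or 3 (edgeR adjusted p = 0.109, 0.0798 and 0.108) or astrocyte replicate 2 or 3 (0.0734 and 0.0511), and with upper-quartile normalization. Slc25a5 has a pseudogene in the table, and reads that match both could not be assigned to 1 gene. Its per-kilobase share of the translocases was 38.4 ± 1.38% in astrocytes, 55.2 ± 1.07% in mKate2- cells and 55.8 ± 1.08% in mKate2+ cells. The highest astrocyte library, at 39.6%, was below the lowest SB28 library, at 53.9%. The third translocase, Slc25a31, a testis form, was at 0.183 CPM or less.

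The ATP-Mg/phosphate carriers, which set the size of the matrix adenine nucleotide pool in response to calcium, changed their leading form. Slc25a23 measured 105, 124 and 135 CPM in astrocytes, 12.1, 16.3 and 12.9 CPM in mKate2- cells and 15.0, 16.1 and 11.3 CPM in mKate2+ cells. Every SB28 library lay far below every astrocyte library. The log2 fold change was -3.12 ± 0.16 in mKate2- cells (adjusted p = 8.44e-06, edgeR) and -3.02 ± 0.19 in mKate2+ cells (adjusted p = 1.97e-05, edgeR), and it stayed between -3.26 and -2.87 with any 1 library left out. The gene lies at chr17:57043711-57059863 on the minus strand, and 168 of its exonic bases lie in the antisense gene Gm17168. Slc25a24 measured 47.9, 69.9 and 49.98 CPM in astrocytes, 72.9, 73.6 and 74.0 CPM in mKate2- cells and 71.2, 52.8 and 74.0 CPM in mKate2+ cells. Its mKate2+ replicate 2 fell among the astrocytes, and the log2 fold changes were 0.41 ± 0.15 and 0.31 ± 0.18 (edgeR adjusted p = 0.0406 and 0.175). The first was lost without astrocyte replicate 1 or 3 or any 1 mKate2- library, with edgeR adjusted p from 0.0941 to 0.102, with upper-quartile normalization and with a gene length trend removed. Slc25a25 stood at 48.6, 48.2 and 48.4 CPM in astrocytes, 32.9, 30.8 and 31.0 CPM in mKate2- cells and 33.4, 25.9 and 30.4 CPM in mKate2+ cells, lower in all SB28 libraries by -0.60 ± 0.10 and -0.62 ± 0.13 on the log2 scale (edgeR adjusted p = 0.00156 and 0.00403). Of its exonic bases, 379 lie in Naif1 on the other strand. Per kilobase, Slc25a24 was 35.7 ± 4.66% of the subfamily in astrocytes, 76.4 ± 0.940% in mKate2- cells and 74.5 ± 3.71% in mKate2+ cells, while its sum was 45.4 ± 5.12, 28.0 ± 0.370 and 25.7 ± 3.44 CPM per kilobase.

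**Figure D3:**
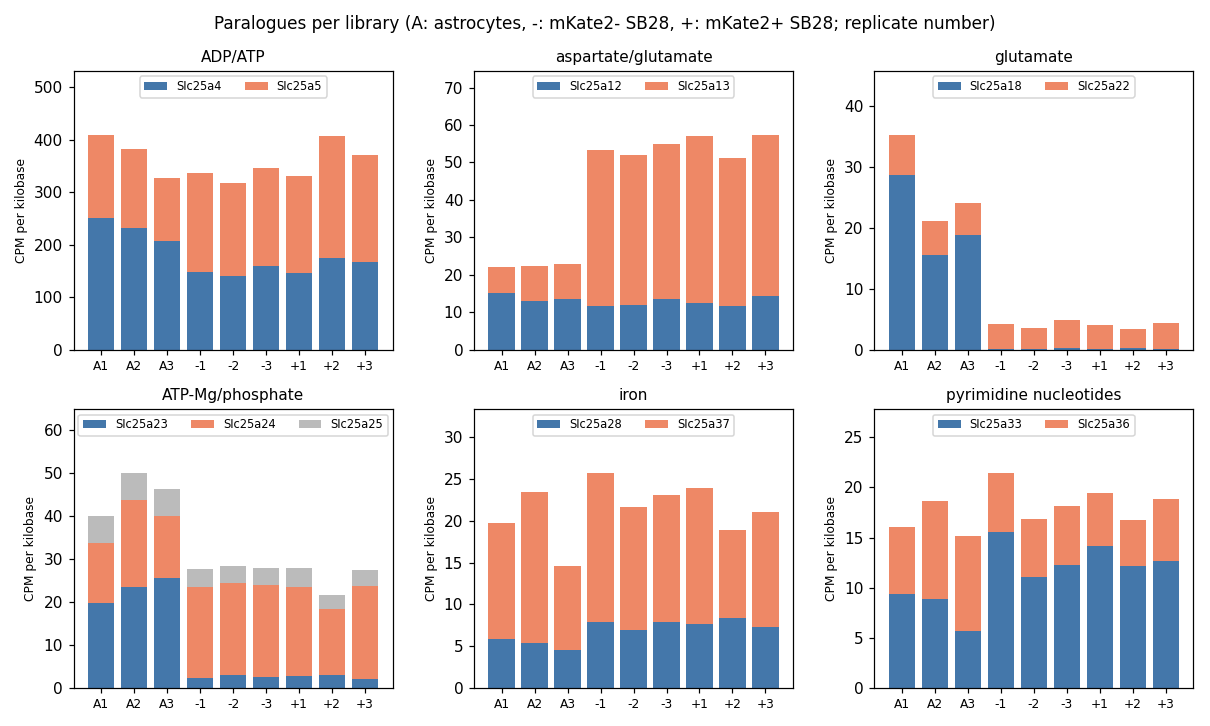
CPM per kilobase of exon of the paralogues in 6 subfamilies, stacked, in each of the 9 libraries (A, astrocytes; -, mKate2- SB28; +, mKate2+ SB28). In the SB28 libraries Slc25a13, Slc25a22 and Slc25a24 take most of their bars, at 76.9%, 96.4% and 76.4% on average in mKate2- cells, and the bars of the mKate2- and mKate2+ libraries overlap in height.

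For all 6 subfamilies the share of 1 paralogue was compared between each pair of groups, 18 comparisons in all. Each of the 12 between SB28 cells and astrocytes gave p = 0.1 in a two-sided exact permutation test, the smallest that 3 libraries against 3 allow, and 0.15 after Benjamini-Hochberg adjustment. No share could therefore pass 0.05. For the glutamate pair the share is set by Slc25a18, which passed the filter through the astrocytes alone, so its values against astrocytes are a description and not read as a test. The 6 between mKate2+ and mKate2- cells differed by -4.69 to 0.643 percentage points, with exact permutation p of 0.2 or more.

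Of the remaining 2 adenine nucleotide carriers tested, Slc25a17, the peroxisomal member of the family, was lower in mKate2- cells by -0.38 ± 0.14 (edgeR adjusted p = 0.041). That call was lost without astrocyte replicate 1 or 2 or any 1 mKate2- library, with edgeR adjusted p of 0.0708 to 0.119, and with a replicate block (edgeR adjusted p = 0.0597). In mKate2+ cells it stood at -0.32 ± 0.15 (edgeR adjusted p = 0.101), and at -0.47 without astrocyte replicate 3 (edgeR adjusted p = 0.0182). Slc25a42, which imports coenzyme A, measured 8.63, 6.85 and 11.4 CPM in astrocytes, 6.84, 4.96 and 6.03 CPM in mKate2- cells and 4.88, 3.82 and 4.74 CPM in mKate2+ cells. Its highest mKate2- library nearly met its lowest astrocyte library, and the log2 fold change was -0.58 ± 0.25 there (edgeR adjusted p = 0.0748) and -0.93 ± 0.25 in mKate2+ cells (edgeR adjusted p = 0.0148). Without astrocyte replicate 2 these were -0.76 and -1.11 (edgeR adjusted p = 0.0346 and 0.0107). Over the 8 tested members of the group, 2 were higher and 4 lower in mKate2- cells by the adjusted p alone, beside 29.3% and 33.8% of all genes. In mKate2+ cells 1 was higher and 4 lower, beside 28% and 32.1% of all genes.

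Of 7 carriers of nucleotides and cofactors, 2 were higher and 2 lower in mKate2- cells by the adjusted p alone, near the 29.3% and 33.8% of all genes. In mKate2+ cells 2 were higher and 1 lower, beside 28% and 32.1% of all genes. Slc25a32, which brings folate into the matrix for folate-dependent metabolism, measured 13.4, 21.9 and 22.0 CPM in astrocytes, 41.5, 33.3 and 46.4 CPM in mKate2- cells and 45.0, 30.5 and 45.2 CPM in mKate2+ cells. It was higher in all SB28 libraries, by 1.10 ± 0.21 and 1.15 ± 0.23 on the log2 scale (edgeR adjusted p = 0.00259 and 0.00361), but under 1 without astrocyte replicate 1 (0.90 and 0.95) or mKate2- replicate 3 (0.99). The pyrimidine nucleotide carriers diverged. Slc25a33 rose from 17.6, 16.7 and 10.8 CPM in astrocytes to 29.4, 20.8 and 23.1 CPM in mKate2- cells and 26.8, 22.9 and 23.8 CPM in mKate2+ cells. Its log2 fold changes were 0.71 ± 0.23 and 0.78 ± 0.21 (edgeR adjusted p = 0.0264 and 0.0146), the first lost without mKate2- replicate 1 or 3 (0.104 and 0.0564), and 281 of its exonic bases lie in the antisense gene Gm13068. Slc25a36 was lower, from 64.6, 94.2 and 90.3 CPM in astrocytes to 55.7, 55.6 and 56.8 CPM in mKate2- cells and 50.7, 44.3 and 59.8 CPM in mKate2+ cells. No SB28 library reached an astrocyte library, and the log2 fold changes were -0.55 ± 0.14 and -0.61 ± 0.17 (edgeR adjusted p = 0.00941 and 0.0156), the second lost without astrocyte replicate 2 or mKate2+ replicate 1 (0.0524 and 0.0566). The per-kilobase share of Slc25a36 in the pair was 52.3 ± 10.2% in astrocytes, 31.4 ± 3.79% in mKate2- cells and 29.2 ± 3.30% in mKate2+ cells. Slc25a16 was lower in mKate2- cells by -0.54 ± 0.16 (edgeR adjusted p = 0.0207), a call lost without astrocyte replicate 2 or any 1 mKate2- library (0.0598 to 0.07), and at -0.48 ± 0.21 in mKate2+ cells (edgeR adjusted p = 0.0816), where it passed without astrocyte replicate 1 (edgeR adjusted p = 0.0406). The carriers of S-adenosylmethionine (Slc25a26) and NAD (Slc25a51) did not pass the test, with log2 fold changes between 0.21 and 0.42.

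Carriers of carboxylates, which feed citrate, malate and oxoglutarate across the membrane, included 1 of 3 tested that rose, beside 29.3% and 28% of all genes higher by the adjusted p alone. Slc25a10, the dicarboxylate carrier, measured 67.1, 47.5 and 55.4 CPM in astrocytes, 79.3, 82.5 and 93.2 CPM in mKate2- cells and 91.1, 91.5 and 92.5 CPM in mKate2+ cells. All SB28 libraries were above all astrocyte libraries, with log2 fold changes of 0.60 ± 0.15 and 0.77 ± 0.15 (edgeR adjusted p = 0.0106 and 0.00374). The gene shares 228 exonic bases with the antisense gene Gm11788. The citrate carrier Slc25a1 and the oxoglutarate/malate carrier Slc25a11, the partner of the aspartate/glutamate carriers in the malate-aspartate shuttle, had log2 fold changes between -0.12 and 0.10 and did not pass the test. Slc25a20, the carnitine/acylcarnitine carrier of fatty acid oxidation, was lower in both SB28 groups by -0.95 ± 0.11 and -0.77 ± 0.14 (edgeR adjusted p = 0.000234 and 0.00217; the first was -1.04 with upper-quartile normalization), from 40.3 ± 1.60 CPM in astrocytes to 20.6 ± 0.658 and 22.3 ± 1.63 CPM.

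Among iron and glutathione carriers, 1 of 4 was higher and 1 lower in each SB28 group by the adjusted p alone, near the shares of all genes (29.3% and 33.8% in mKate2- cells, 28% and 32.1% in mKate2+ cells). With the threshold on the log2 fold change as well, 0 were called in mKate2- cells, beside 11.5% of genes higher and 22.4% lower. In mKate2+ cells 1 was called lower, beside 22.8% of genes. The iron importer Slc25a28, mitoferrin-2, measured 21.9, 20.1 and 16.8 CPM in astrocytes, 29.6, 25.9 and 29.7 CPM in mKate2- cells and 28.7, 31.4 and 27.2 CPM in mKate2+ cells. The SB28 libraries lay above the astrocytes, by 0.55 ± 0.15 and 0.65 ± 0.16 (edgeR adjusted p = 0.0141 and 0.0108), the first lost without mKate2- replicate 1 or 3 (0.0527 and 0.053). Its paralogue Slc25a37, mitoferrin-1, the erythroid form, measured 84.0, 109 and 60.8 CPM in astrocytes, 107, 88.7 and 91.8 CPM in mKate2- cells and 97.7, 63.5 and 82.8 CPM in mKate2+ cells. The groups overlapped, and the log2 fold changes were 0.19 ± 0.20 and 0.01 ± 0.23 (edgeR adjusted p = 0.431 and 0.967); 381 and 92 of its exonic bases lie in Gm31748 and Gm27223 on the other strand. The per-kilobase share of Slc25a37 was 72.3 ± 4.22% in astrocytes, 67.7 ± 1.74% in mKate2- cells and 63.0 ± 6.43% in mKate2+ cells. Slc25a40, a glutathione carrier, was lower, from 17.9, 21.3 and 16.8 CPM in astrocytes to 11.1, 8.39 and 9.15 CPM in mKate2- cells and 9.04, 4.68 and 9.83 CPM in mKate2+ cells. Its log2 fold changes were -0.95 ± 0.17 and -1.19 ± 0.27 (edgeR adjusted p = 0.00192 and 0.00693), and the second was -0.94 without mKate2+ replicate 2, its lowest library, while the first was -1.07 without mKate2- replicate 1 and -1.04 without astrocyte replicate 3. The other glutathione carrier, Slc25a39, measured 277, 186 and 167 CPM in astrocytes, 213, 235 and 237 CPM in mKate2- cells and 241, 323 and 241 CPM in mKate2+ cells. Astrocyte replicate 1 lay above 5 of the 6 SB28 libraries, and the log2 fold changes of 0.13 ± 0.20 and 0.43 ± 0.24 did not pass the test (edgeR adjusted p = 0.599 and 0.151), whereas without that library they were 0.39 and 0.69 (edgeR adjusted p = 0.0112 and 0.0245).

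Of the 3 uncoupling-protein-like members and the 6 tested without an assigned group, 1 was higher and 3 lower in mKate2- cells by the adjusted p alone, and 0 higher and 2 lower in mKate2+ cells, beside 29.3% and 33.8%, and 28% and 32.1%, of all genes. Slc25a14 was lower by -0.78 ± 0.21 and -0.81 ± 0.25 (edgeR adjusted p = 0.0136 and 0.0235), lost without mKate2- replicate 3 (0.0561) and without mKate2+ replicate 1 or 3 (0.0912 and 0.0855). With a replicate block Slc25a14 lost its call in mKate2+ cells as well (edgeR adjusted p = 0.0528). Its relative Slc25a30 did not pass the test. Slc25a27 was at -0.56 ± 0.29 and -1.07 ± 0.45 (edgeR adjusted p = 0.12 and 0.0715), and the second passed both thresholds without mKate2+ replicate 1 (-1.67, edgeR adjusted p = 0.0135) and with all 9 libraries in 1 fit (-1.07, edgeR adjusted p = 0.0357). Slc25a53, an orphan carrier, measured 5.48, 6.82 and 6.26 CPM in astrocytes, 2.35, 3.15 and 3.22 CPM in mKate2- cells and 3.91, 3.16 and 2.81 CPM in mKate2+ cells. It was below the astrocytes in all SB28 libraries, with log2 fold changes of -1.07 ± 0.24 and -0.83 ± 0.24 (edgeR adjusted p = 0.00543 and 0.0198). The first was -0.94 without mKate2- replicate 1, and the second call was lost without astrocyte replicate 2 or mKate2+ replicate 3 (edgeR adjusted p = 0.0567 and 0.0823). In mKate2- cells Slc25a43 was higher by 0.84 ± 0.30 and Slc25a45 lower by -0.95 ± 0.32 (edgeR adjusted p = 0.0409 and 0.0305). Each of these calls was lost when any 1 of 5 of the 6 libraries was left out, the exceptions being astrocyte replicate 1 for Slc25a43 and astrocyte replicate 3 for Slc25a45, with edgeR adjusted p up to 0.109 and 0.104. That of Slc25a43 was also lost with a replicate block (edgeR adjusted p = 0.0697). In mKate2+ cells the values of Slc25a43 and Slc25a45 were 0.85 ± 0.34 and -0.77 ± 0.30 (edgeR adjusted p = 0.0623 and 0.0584). Without those same astrocyte libraries they were 1.04 and -1.01 (edgeR adjusted p = 0.0408 and 0.0136). With all 9 libraries in 1 fit both passed (edgeR adjusted p = 0.028 and 0.0366), and Slc25a45 also did with DESeq2, upper-quartile normalization and a length trend removed (adjusted p = 0.0367, 0.0399 and 0.0472). Slc25a46, an outer membrane protein involved in mitochondrial fission, and Slc25a35 and Slc25a47 did not pass the test in either comparison. Of the 3677 exonic bases of Slc25a35, 1151 lie in Rangrf on the other strand. Slc25a46 shares 383 with B930094E09Rik on the other strand.

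No member passed the test between mKate2+ and mKate2- SB28 cells. At an adjusted p below 0.05, edgeR called 0 of 39 members, as it did 0% of 11854 genes in either direction, and 0 members had an unadjusted p below 0.05 in edgeR or DESeq2, where 241 and 317 genes did. That count depended on the libraries and the fit, at 5 members and 877 genes without mKate2+ replicate 1, 1 member and 119 genes without mKate2- replicate 2, 2 of 45 members and 1271 genes without a filter, and 1 member and 398 genes with a replicate block. A looser rule, adapted from the study's rule for upregulated genes, was applied in both directions. With a fold change above 1.5, an unadjusted p below 0.05 and a mean normalized count above 50, again 0 members were called, against 0.194% of genes higher and 0.169% lower (23 and 20 genes). The gene counts rested on single libraries, at 310 higher and 70 lower without mKate2+ replicate 1, 233 and 36 without mKate2+ replicate 3, 6 and 16 without mKate2+ replicate 2, 10 and 28 without mKate2- replicate 2 and 15 and 21 without mKate2- replicate 1, with 0 members in each. Slc25a18 was under the filter here. The largest difference among members was that of Slc25a27, at -0.52 ± 0.41, a gene at 1.91 CPM or less in SB28 cells.

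The 5 members with the smallest p-values are given as they measured, all with an edgeR adjusted p of 0.923. Slc25a42, with the values given above, had a log2 fold change of -0.36 ± 0.17 (edgeR unadjusted p = 0.0737), and its lowest mKate2- library, at 4.96 CPM, lay just above its highest mKate2+ library, at 4.88 CPM. Slc25a39 was at 0.29 ± 0.15 (edgeR unadjusted p = 0.0898), with mKate2+ replicate 2, at 323 CPM, standing apart from the other 5 SB28 libraries at 213 to 241 CPM. Slc25a10 was at 0.16 ± 0.09 (edgeR unadjusted p = 0.0984), and its mKate2- replicate 3 was the highest of all 6. Slc25a5 was at 0.23 ± 0.12 and Slc25a3 at 0.17 ± 0.10 (edgeR unadjusted p = 0.104 and 0.105). Slc25a3 measured 525, 514 and 576 CPM in mKate2- cells and 554, 597 and 606 CPM in mKate2+ cells, beside 575, 499 and 475 CPM in astrocytes, and its groups overlapped. Of the carriers that set tumor cells apart from astrocytes, log2 fold changes between the SB28 groups were 0.10 ± 0.07 for Slc25a13, 0.09 ± 0.19 for Slc25a23 and 0.04 ± 0.16 for Slc25a32.

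The median log2 fold change of the 39 members was 0.08, beside 0.0033 for all genes, and 26 of 39 were above 0, beside 50.9% of genes. In the mKate2+ group 1 library stood apart. In plain CPM, before TMM scaling, replicate 2 was the lowest of the 6 SB28 libraries for 17 of 39 members. Each of the others was the lowest for 1 to 9. Replicate 2 was the highest for 10, as was mKate2+ replicate 3. These ranks were not counted over all genes. The TMM factor of replicate 2 was 0.921, where those of the other 5 were 0.988 to 1.02, so scaling raises its CPM beside theirs. Without replicate 2 the log2 fold change of Slc25a39 was 0.08 ± 0.07 and that of Slc25a5 0.08 ± 0.07. That of Slc25a42 was -0.30 ± 0.19 and that of Slc25a40 -0.01 ± 0.15, in place of -0.24 ± 0.25. The median over members was then 0.06. What sets this library apart was not tested.

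**Figure D4:**
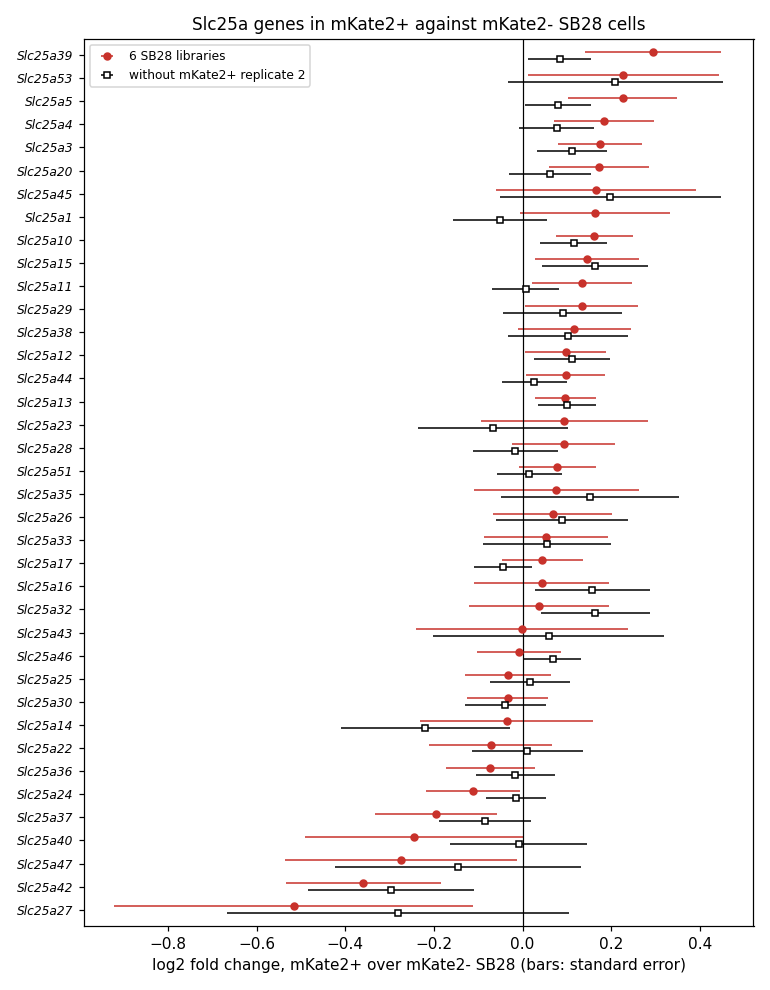
Log2 fold changes of 38 of the 39 Slc25a genes tested in mKate2+ against mKate2- SB28 cells with standard errors, from all 6 libraries (red) and without mKate2+ replicate 2 (open squares). All 38 values lie between -0.52 and 0.29, and those of Slc25a39 and Slc25a40 move toward 0 without that library.

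Other genes of mitochondrial membrane transport were counted from a list of 36 that do not carry an Slc25a symbol. Of these 34 were tested against astrocytes, and 4 were called higher and 4 lower in each SB28 group at both thresholds, beside the background shares above. The higher ones included Got1, Gpd2 and Sfxn2, and the lower ones were Gpd1, Letm2, Sfxn5 and Ucp2. Of the lower ones, Ucp2 in both comparisons and Gpd1 in that of mKate2+ cells passed the filter through the astrocytes alone, and Gpd1 was above 1 CPM in 1 mKate2- library, so these could hardly be called otherwise and are given as a description. By the adjusted p alone 13 were higher and 6 lower in mKate2- cells, beside 29.3% and 33.8% of all genes, and 13 higher and 5 lower in mKate2+ cells, beside 28% and 32.1%. Between mKate2+ and mKate2- cells, 0 of 32 passed the edgeR adjusted p.

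Of 6 enzymes of the redox shuttles that work with the carriers, 3 were higher and 1 lower in each SB28 group by the adjusted p alone, beside 29.3% and 33.8% of all genes in mKate2- and 28% and 32.1% in mKate2+ cells. Got1, the cytosolic aspartate aminotransferase of the malate-aspartate shuttle, measured 104, 95.6 and 66.8 CPM in astrocytes, 253, 267 and 248 CPM in mKate2- cells and 292, 280 and 265 CPM in mKate2+ cells. All SB28 libraries were above all astrocyte libraries, by 1.54 ± 0.18 and 1.73 ± 0.19 (edgeR adjusted p = 0.00021 and 0.000207). Its mitochondrial counterpart Got2 was higher by 0.69 ± 0.14 and 0.84 ± 0.15 (edgeR adjusted p = 0.00382 and 0.00188). The malate dehydrogenases of the malate-aspartate shuttle did not pass the test, with 0.04 ± 0.11 and 0.07 ± 0.11 for the cytosolic Mdh1 (edgeR adjusted p = 0.78 and 0.638) and 0.10 ± 0.14 and 0.28 ± 0.16 for the mitochondrial Mdh2 (edgeR adjusted p = 0.555 and 0.157). Of the glycerol phosphate shuttle, the mitochondrial enzyme Gpd2 was higher by 1.04 ± 0.19 and 1.09 ± 0.19 (edgeR adjusted p = 0.00185 and 0.00201) and the cytosolic enzyme Gpd1 at -3.53 ± 0.73 and -4.39 ± 0.71, given as a description. Gpd1 was uneven among astrocytes, at 7.20, 2.94 and 18.5 CPM. Ucp2, a family member under another symbol, was at 2.09, 1.65 and 38.6 CPM in astrocytes and at 0.468 CPM or less in SB28 cells, so that its mean in astrocytes rests on replicate 3.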

How the data were processed

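RNA-seq was analysed in 9 libraries, 3 each of astrocytes, mKate2- and mKate2+ SB28 cells. The authors trimmed reads, mapped them to GRCm38 and deposited counts of uniquely assigned reads per Ensembl gene, without normalization. The submitters' processing notes name Trimmomatic 0.36, STAR 2.5.2b and featureCounts from Subread 1.5.2, and the annotation release is not given in the sources used here. The sort gates in the labels give CellTrace Violet to the tumor cells, whereas the study's methods stain the astrocytes, so libraries were taken by their names. Columns named plus were matched to the samples titled pos.

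Gene names, positions and exonic lengths (union of exons) came from GENCODE M21, in which 259 IDs have no name, and promoters from RefSeq GRCm38.p6. CPM was computed from the deposited counts on each library's total. Carriers were ranked and paralogue shares taken as CPM per kilobase of exon. The order of Slc25a3, Slc25a4 and Slc25a5 is also given in plain CPM. The sums of marker lists and of the family, the part of those genes in the family and the rank of Gja1 used plain CPM. Each comparison used its 6 libraries, genes above 1 CPM in at least 2 of them, TMM normalization and edgeR's quasi-likelihood test without a block, with Benjamini-Hochberg adjustment over all genes tested (R 4.3.3, edgeR 4.0.16, DESeq2 1.42.0, limma 3.58.1). Standard errors are the absolute log2 fold change divided by the square root of F. Counting error is small at these totals except for genes with few counts, and the spread of 3 replicates limits precision. The fits were tested on simulated data.

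The members and lists were chosen with earlier results of these data known. Values are given in every library for members past both thresholds in both comparisons with astrocytes at an absolute log2 fold change above 2 in at least 1, for the 3 highest per kilobase in each group, for paralogues of 6 subfamilies, for the 5 with the smallest p between SB28 groups and for members past both thresholds in only 1 comparison with astrocytes. Slc25a32 and single genes of the other lists were given the same way after their values were seen. Alternatives were DESeq2, upper-quartile normalization, no filter, all 9 libraries in 1 fit, a replicate block, removal of a gene length trend by loess (span 0.3), TMM-scaled CPM, shares without division by length and each library left out in turn. The mKate2 transgene was not analysed here, and a few genes that enter the counts are not reported by name here.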

Additional observations from a re-analysis of the deposited data

How the results depend on the processing

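Across the alternatives, 688 values of named members and 277 summary values kept their direction and their side of the threshold, or their size. Of the member values, 32 lost and 5 gained the threshold. The sign turned for 19 member values and 6 summary values, and 8 summary counts moved in size. Members called lower in mKate2- cells against astrocytes numbered 6 with upper-quartile normalization and 5 without a filter in place of 3. All genes called lower there numbered 3187 of 13356 and 4119 of 26862 in place of 2994. In mKate2+ cells 5 members were called lower without a filter in place of 3. Those gained with upper-quartile normalization were Slc25a20, Slc25a40 and Slc25a45 in mKate2- cells (-1.04, -1.04 and -1.03) and Slc25a42 in mKate2+ cells (-1.03). Without a filter Slc25a21 and Slc25a48 entered both. These 2 genes had 5 counts or fewer in every SB28 library, so they could hardly be called otherwise. Slc25a21, at 3, 2 and 109 counts in astrocytes, rests on astrocyte replicate 3. Members called higher in mKate2+ cells fell from 4 to 2 with upper-quartile normalization, which moved the median of all genes from -0.04 to -0.12 in mKate2- and from -0.02 to -0.12 in mKate2+ cells. With 1 library left out, mKate2- cells had 1 to 3 members called higher, the 1 without mKate2- replicate 3, and 3 to 5 lower, the 5 without astrocyte replicate 3. All genes called in those fits numbered 1407 of 13300 higher and 2745 of 13040 lower. By the adjusted p alone mKate2- cells had 5 to 10 members higher. The 5 were without mKate2- replicate 1 or 3, where 3176 of 13291 and 3142 of 13300 genes were higher. The summed family difference from astrocytes then ran from -264 to 17.6 CPM in mKate2- cells and from -100.9 to 180.2 CPM in mKate2+ cells, and on TMM-scaled CPM it was -94.1 and 213 CPM. Between mKate2+ and mKate2- cells, the share of Slc25a13 differed by -0.761 to 0.876 percentage points and that of Slc25a22 by -2.16 to 0.0718. By fold, unadjusted p and mean count there, 62 genes were higher with DESeq2, 224 without a filter, 41 with all 9 libraries, 13 with the block and 13 with a length trend removed, against 23 with edgeR. Those lower numbered 35 without a filter, 12 with all 9 libraries and 33 with the block, against 20. With 1 library left out, 6 to 310 were higher and 16 to 70 lower, and 0 members were called in any of these.

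The signs that turned among named members belonged to log2 fold changes of 0.20 or less in size. Against astrocytes, Slc25a3 in mKate2- cells was at -0.0089 with upper-quartile normalization, and Slc25a12 in mKate2+ cells was at 0.0089 without a filter and ran from -0.12 to 0.021 with 1 library left out. Slc25a37 in mKate2+ cells was at -0.0039 with DESeq2, at -0.089 with upper-quartile normalization and at -0.20 to 0.21 with 1 library left out, where in mKate2- cells Slc25a37 ran from -0.0031 to 0.39 and Slc25a39 from -0.017 to 0.39. Between the SB28 groups, removal of a length trend gave 0.030 for Slc25a25, -0.030 for Slc25a33 and 0.011 for Slc25a36. With 1 library left out there, the ranges were -0.18 to 0.020 for Slc25a22, -0.067 to 0.24 for Slc25a23, -0.096 to 0.017 for Slc25a25, -0.016 to 0.14 for Slc25a28 and -0.050 to 0.21 for Slc25a33. The causes were not tested.

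Other calls by the edgeR adjusted p changed with the fit. Without a filter those of Slc25a14 were lost in both SB28 groups (adjusted p = 0.0611 and 0.0782), those of Slc25a16, Slc25a17, Slc25a43 and Slc25a45 in mKate2- cells (0.074, 0.1, 0.111 and 0.0624) and those of Slc25a4 and Slc25a53 in mKate2+ cells (0.127 and 0.0803). With upper-quartile normalization Slc25a43, Slc25a24 and Slc25a5 were lost and Slc25a42 gained in mKate2- cells (0.0583, 0.0877, 0.0937 and 0.0493), and Slc25a16, Slc25a17 and Slc25a45 were gained in mKate2+ cells (0.0435, 0.0482 and 0.0399). With a length trend removed Slc25a24 was lost in mKate2- cells (0.0507), and Slc25a17, Slc25a45 and Slc25a51 were gained in mKate2+ cells (0.0385, 0.0472 and 0.0334). With all 9 libraries in 1 fit Slc25a42 was gained in mKate2- cells (0.0455), and Slc25a15, Slc25a16, Slc25a27, Slc25a43, Slc25a45 and Slc25a51 in mKate2+ cells (0.0436, 0.035, 0.0357, 0.028, 0.0366 and 0.0217).

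Same-numbered libraries deviated together with correlations of -0.15 to 0.25 across genes, and not every library correlated best with its own number. The populations came from shared co-cultures, but no source used here says that a number marks one, so the numbers were not taken to pair libraries. With a replicate block, 2 members were called higher and 3 lower in mKate2- cells, beside 1593 and 2969 of 13356 genes. In mKate2+ cells 4 were called higher and 3 lower, and 0 were called between the SB28 groups. By the adjusted p alone the block gave 9 higher and 12 lower in mKate2- cells, beside 3846 and 4340 genes. In mKate2+ cells it gave 8 higher and 9 lower, with no call at both thresholds changed in either group. The calls by adjusted p not made with the block were Slc25a4 and Slc25a14 in mKate2+ cells (edgeR adjusted p = 0.0765 and 0.0528) and Slc25a17 and Slc25a43 in mKate2- cells (0.0597 and 0.0697). Members under the filter, and Slc25a18 in SB28 cells, are limited by depth, and 3 libraries a group limit the remaining calls.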
